A study of Mus musculus with 6 samples.

Results

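Junction and adhesion genes of the kidney were examined as 1 group: the claudins, occludin, the zonula occludens proteins, the cadherins, the desmosomal genes, Epcam and the integrins. Members were taken by symbol from the deposited table, and the endothelial cadherin Cdh5 was left out. This gave 57 of the 13026 genes in the table, and 56 of them were tested, because Cdh24 had a mean under 0.5 FPKM (fragments per kilobase of transcript, scaled to library depth). The 57 were 15 claudins, 5 other tight junction genes, 8 cadherins, 7 desmosomal genes, Epcam, 11 alpha integrins, 8 beta integrins and the genes for 2 integrin-binding proteins, Itgb1bp1 and Itgb3bp, which the symbol pattern also caught. The table itself starts near 0.5 FPKM in the higher of the group means, so relatives below that level were not analysed here. The members were chosen by name and not by a cut on their values, though with earlier results of these data known.

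The kidneys came from adult male mice on a C57BL/6 J background, with 3 libraries from mice with an intact LIGHT gene (LIGHT+/+, the wild type) and 3 from mice without it (LIGHT-/-, the knockout). LIGHT, encoded by Tnfsf14, belongs to the tumour necrosis factor family of cytokines. Every animal, wild type included, had been through bilateral renal ischemia of 32 min followed by reperfusion of 24 h, so each value below is of injured tissue and the comparison is between genotypes after injury. RNA was taken from whole kidney, in which fewer cells of a type and less RNA per cell cannot be told apart. The sources used here do not describe how the deletion was made, and Tnfsf14 itself was not analysed here, so the genotypes were not checked on the targeted gene.

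Epithelial cells of the nephron are joined near their apex by tight junctions, where claudins form the seal or a selective pore and occludin and F11r (a junctional adhesion molecule) accompany them. The claudins differ by segment, so the set present decides which ions pass between the cells. Below lie the adherens junctions, built from cadherins tied to actin through catenins, and the desmosomes, whose cadherins are tied to intermediate filaments. Integrins are pairs of an alpha and a beta chain that anchor cells to the basement membrane, and in leukocytes and platelets they hold cells to vessel walls and to each other. Tubule cells lose polarity and can detach after ischemia, and both kinds of adhesion have long been studied in that setting.

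Kidney identity was clear from marker sums: the 12 proximal tubule markers together stood at 1505, 1527 and 1275 FPKM across wild type libraries and 1739, 1848 and 2897 across knockout libraries. Knockout library 3 stood apart from the rest, with a Pearson r across all genes tested, on log2(FPKM + 1), of 0.934 to 0.956 with the other libraries, against 0.976 to 0.989 among the other 5. It had the lowest sum of 10 injured tubule markers, the libraries standing at 6419.8, 6025 and 6642 FPKM across wild type libraries and 6242, 4945 and 1670.0 across knockout libraries. Its 10 collecting duct markers summed to the highest value, with 129, 202 and 168 FPKM across wild type libraries and 121, 176 and 492 across knockout libraries. Sums of markers of 2 tissues that lie on or beside the kidney, listed after the values were seen, were also highest there. The 9 urothelial genes in the table summed to 3.29, 25.7 and 22.5 FPKM across wild type libraries and 16.9, 8.05 and 98.1 across knockout libraries, and the 9 adipocyte genes to 43.1, 46.2 and 46.6 FPKM across wild type libraries and 44.4, 48.7 and 227 across knockout libraries. Adipoq, a defining adipocyte gene, was at 13.1 FPKM in that library and at most 0.0659 in the other 5. It is in the table only through knockout library 3, as are some others of these 2 lists, so their being highest there was fixed by that. Pnpla2, also on the adipocyte list, was at 22.9 FPKM there against 21.7 to 27.5 in the other 5. The part of these marker differences in the results below was not tested. Values without that library are given beside the results that it moved most.

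No member passed the test between genotypes. With limma on log2(FPKM + 1), 0 of the 56 members had an adjusted p under 0.05, where 15 of all 12836 genes tested did (0.117%), 0.0234% higher in the knockout and 0.0935% lower. The smallest adjusted p among the members was 0.592. At an unadjusted p under 0.05 there were 0 members higher in the knockout, against 4.34% of all genes, and 1 lower, Itgb1, against 3.74% of all genes. The 3 knockout values were all below the 3 wild type values in 4 members, among them Itgb1, Itga6 and Cdh1, against 8.80% of all genes, and all above them in 0 members, against 7.76%. The 4 members are 7.14% of those tested, so neither direction exceeded the share among all genes. The median log2 fold change was -0.03 over the members and -0.01 over all genes tested, and 34 members were lower and 22 higher in the knockout.

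For most members the data also bounded the size of any difference on the scale of log2(FPKM + 1). The 95% interval of the log2 fold change lay inside a 2-fold change in either direction for 45 of the 56 members (80.4%), against 89.8% of all genes tested. It lay inside a 1.5-fold change for 27. These intervals are not adjusted for the number of genes. The scale understates the change of low genes, so for low members the bound does not hold for FPKM itself. Itga2, for example, ran from 0.343 to 2.00 FPKM and counts as inside the 2-fold bound, with an interval of -0.91 to 0.80. By role, 9 of 15 claudins and 8 of 11 alpha integrins lay inside the 2-fold bound, as did all 7 desmosomal genes and all 8 beta integrins.

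**Figure D1:**
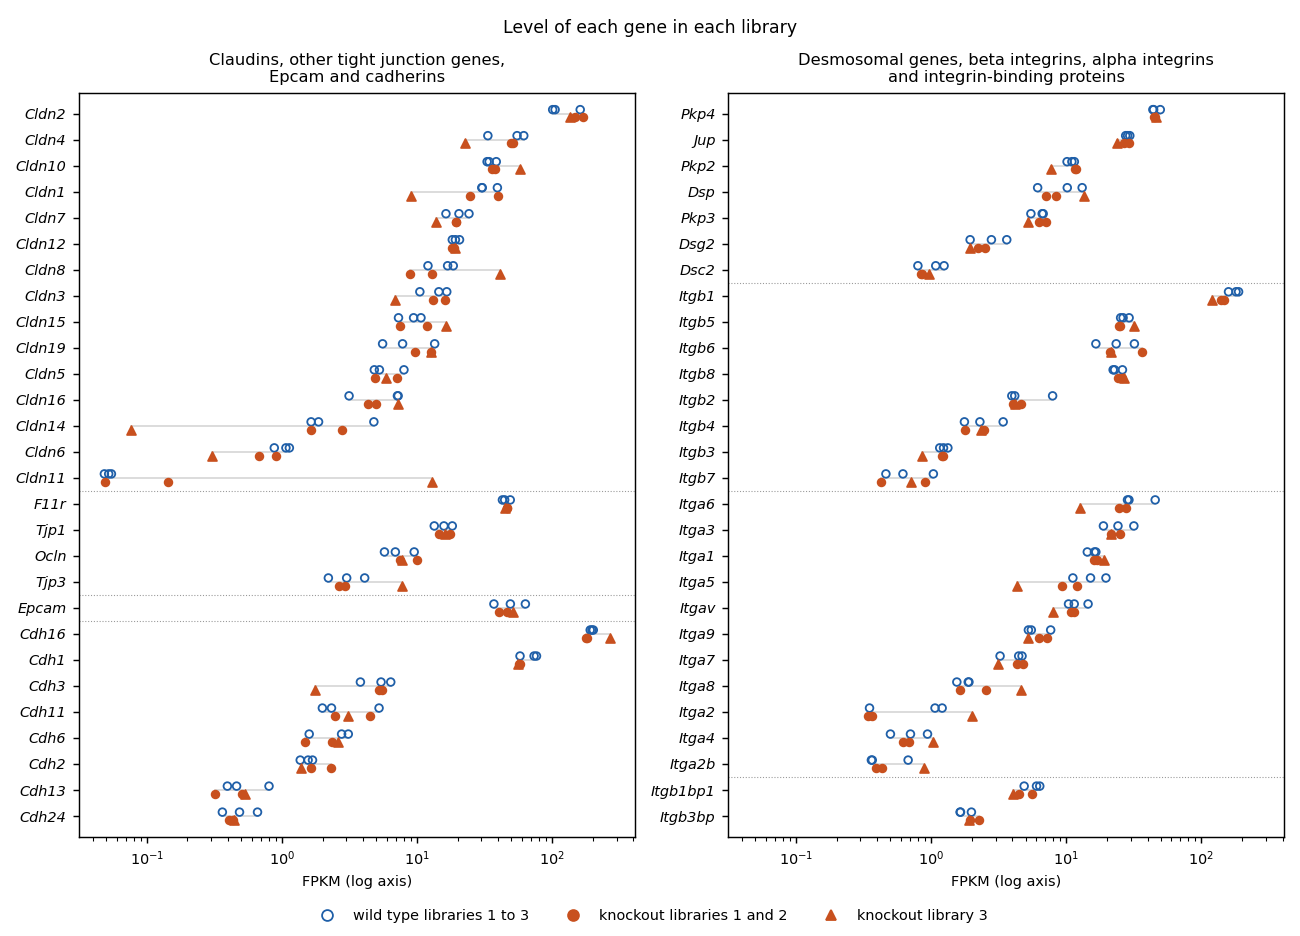
Level of each gene described in FPKM (log axis) in each of the 6 libraries, ordered by role and by wild type mean. Open circles are wild type, filled circles knockout libraries 1 and 2, and the triangle knockout library 3, which lies far from the other 5 for Cldn11, Cldn14, Cldn1, Cldn8, Itga5 and Itga6.

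**Figure D2:**
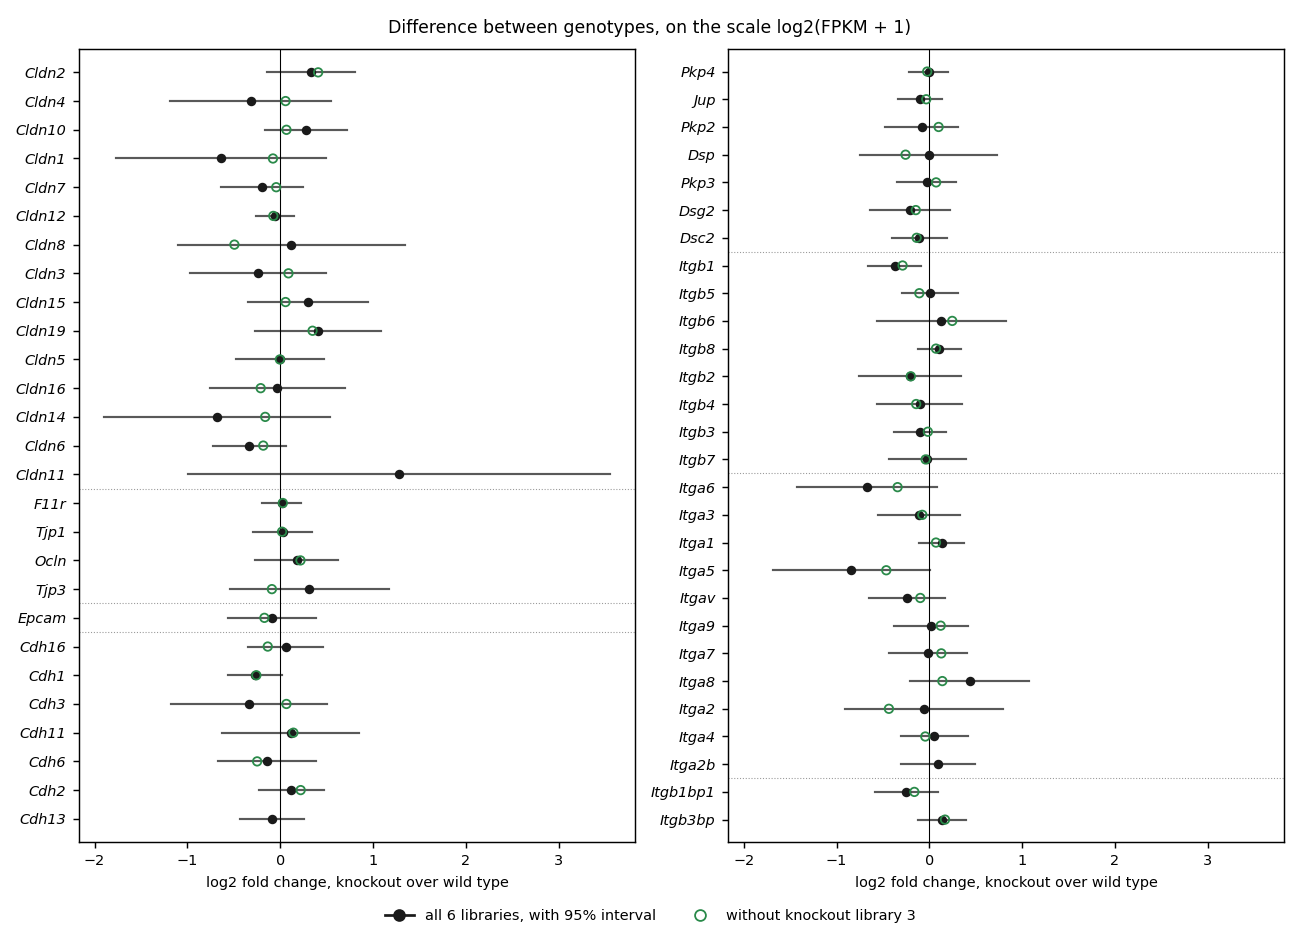
Fitted log2 fold change of knockout over wild type for the junction and integrin genes plotted, with its 95% interval (black), and the same without knockout library 3 (green circles, shown for genes that kept a mean of at least 0.5 FPKM). Among the genes plotted, only the interval of Itgb1, -0.66 to -0.09, leaves out 0.

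Claudins together made up 349, 331 and 353 FPKM across wild type libraries and 369.7, 384 and 360.5 across knockout libraries, and no single claudin passed. The groups did not overlap in this sum, but they overlapped once Cldn11, present in knockout library 3 almost alone, was left out, at 349, 331 and 353 FPKM across wild type libraries and 369.6, 384 and 348 across knockout libraries. By gene, 6 were higher and 9 lower in the knockout. Their median log2 fold change was -0.03, or 0.13 when wild type library 3 was left out. The proximal tubule claudin Cldn2, which forms a pore for cations and water, was the most abundant. It stood at 161, 105 and 100.9 FPKM across wild type libraries and 171, 149 and 135 across knockout libraries. Wild type library 1 was within the range of the knockout libraries, while the other 2 wild type libraries lay below all of them. The log2 fold change was 0.33 ± 0.20 (SE; 95% interval -0.14 to 0.80; limma adjusted p = 0.634). Leaving out 1 library at a time gave values from 0.21 to 0.54, the highest without wild type library 1, with a limma adjusted p of 0.642 (unadjusted 0.00829). Without it the groups did not overlap, nor did 27.5% of all genes tested. For Cldn2 that was fixed by leaving out the only wild type value not below the knockout values. Of all claudin FPKM, Cldn2 held 46.3, 31.8 and 28.6% across wild type libraries and 46.1, 38.7 and 37.4% across knockout libraries, so its share varied more among wild type libraries than between the group means of 35.5 and 40.8%. The summed proximal tubule markers given above were also higher in all 3 knockout libraries than in the wild type ones, and their part in the levels of Cldn2 and the claudin sum was not tested.

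Cldn10 comes as an anion-selective form in the proximal tubule and a cation-selective form in the thick ascending limb, which a value per gene does not separate. It stood at 38.6, 34.2 and 33.0 FPKM across wild type libraries and 35.8, 38.1 and 57.5 across knockout libraries. Only knockout library 3 lay outside the range of the wild type libraries. Its log2 fold change was 0.28 ± 0.19 (limma adjusted p = 0.660) and 0.07 without that library. Cldn15, a cation pore best known from the intestine, stood at 7.29, 9.43 and 10.7 FPKM across wild type libraries and 7.46, 11.9 and 16.3 across knockout libraries. Knockout library 3 was again the highest, and knockout library 2 was also above the wild type range. The log2 fold change was 0.30 ± 0.27 (limma adjusted p = 0.723) and 0.06 without knockout library 3.

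**Figure D3:**
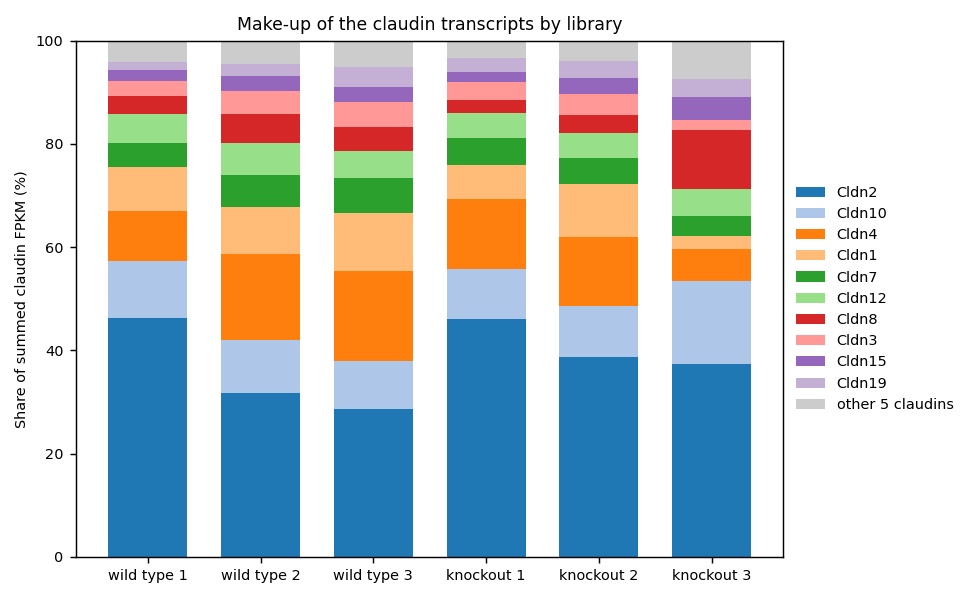
Share of each claudin in the summed claudin FPKM of each library, in percent, as stacked bars. Cldn2 holds between 28.6 and 46.3% in every library, and knockout library 3 has the largest share of Cldn8 (11.5%) and the smallest of Cldn1 (2.51%).

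Cldn1 and Cldn4, sealing claudins, and their relatives Cldn3 and Cldn7 were lowest in knockout library 3. Cldn1, a claudin of the parietal cells of Bowman's capsule, stood at 30.2, 30.4 and 39.3 FPKM across wild type libraries and 24.6, 39.6 and 9.04 across knockout libraries. Knockout library 2 was the highest of all 6 and knockout library 3 the lowest, so the knockout spanned the whole wild type range. Its log2 fold change of -0.64 ± 0.47 (limma adjusted p = 0.683) was -0.08 without that library. Cldn4, found in the collecting duct, stood at 33.4, 55.0 and 61.7 FPKM across wild type libraries and 49.8, 51.2 and 22.5 across knockout libraries, with a log2 fold change of -0.32 ± 0.36 (limma adjusted p = 0.782) and 0.06 without knockout library 3. In Cldn4 wild type library 1 was also low, below knockout libraries 1 and 2. Cldn3 and Cldn7 had log2 fold changes of -0.24 and -0.20, and 0.09 and -0.04 without that library.

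Cldn8, a claudin of the distal nephron and collecting duct, went the opposite way in the same library. It stood at 12.0, 18.5 and 16.8 FPKM across wild type libraries and 8.88, 13.0 and 41.3 across knockout libraries. Knockout libraries 1 and 2 were among the 3 lowest values and knockout library 3 the highest. The log2 fold change over all libraries was 0.12 ± 0.51 (95% interval -1.11 to 1.35; limma adjusted p = 0.949), and without knockout library 3 it was -0.49 (limma adjusted p = 0.709), which also did not pass. Cldn8 was named after its values were seen. The sum of collecting duct markers given above was highest in the same library, and Aqp2, the water channel of principal cells, was at 324.7 FPKM there against 38.5 to 89.5 in the other 5.

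The claudins of the thick ascending limb overlapped between the genotypes. Cldn16 and Cldn19 together form the route by which calcium and magnesium are reabsorbed between cells, and Cldn14 restrains that route. Cldn19 stood at 5.56, 7.82 and 13.5 FPKM across wild type libraries and 9.58, 12.6 and 12.6 across knockout libraries. The range of the wild type libraries held all of the knockout values, and the log2 fold change was 0.41 ± 0.29 (limma adjusted p = 0.669). Leaving out 1 library at a time gave values from 0.15 to 0.72, the highest without wild type library 3, with a limma adjusted p of 0.845 (unadjusted 0.0107). Without it the groups did not overlap, nor did 25% of all genes tested. For Cldn19 that was fixed by leaving out the only wild type value not below the knockout values. The 8 markers of the thick ascending limb and distal convoluted tubule summed to 572, 757 and 887 FPKM across wild type libraries and 473, 592 and 966 across knockout libraries. Umod, at 383, 522 and 696 FPKM across wild type libraries, was the largest part of that sum. Among wild type libraries, Slc12a3, Calb1 and Trpm6 were instead lowest in library 3. The part of these markers in Cldn19 was not tested. Cldn16 averaged 5.85 ± 2.35 FPKM for wild type against 5.50 ± 1.51 for knockout (SD, n = 3 each), at a log2 fold change of -0.03 ± 0.30, or -0.21 without knockout library 3. Cldn14 stood at 4.79, 1.87 and 1.64 FPKM across wild type libraries and 1.63, 2.78 and 0.0767 across knockout libraries, highest in wild type library 1 and lowest in knockout library 3. Its log2 fold change was -0.68 ± 0.51 (limma adjusted p = 0.688), and -0.16 without that library.

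The claudin with the largest fitted difference was Cldn11, which forms the strands of myelin and of Sertoli cell junctions (ENSMUSG00000037625.7; chromosome 3, 31149920 to 31164324, mm10, from GENCODE M21). It stood at 0.0547, 0.0485 and 0.0522 FPKM across wild type libraries and 0.0493, 0.144 and 12.9 across knockout libraries. A single library therefore carried the whole difference, and Cldn11 is in the table only through it. The fitted log2 fold change was 1.28 ± 0.95 (95% interval -0.99 to 3.55; limma adjusted p = 0.683). In all, 18 genes were at 5 FPKM or more in knockout library 3 and under 1 FPKM in each of the other 5, Cldn11 being the 1 member among them, while the other libraries had 0 or 1 such gene each. The remaining claudins were Cldn12 at 19.4 ± 1.198 FPKM for wild type against 18.6 ± 0.574 for knockout, the endothelial Cldn5 at 6.03 ± 1.72 FPKM for wild type against 5.95 ± 1.10 for knockout, and Cldn6, best known from embryonic epithelium, at 1.03 ± 0.134 FPKM for wild type against 0.626 ± 0.302 for knockout (SD, n = 3 each), with limma adjusted p of 0.847, 0.998 and 0.598. The 10 endothelial markers, beside Cldn5, summed to 197, 212 and 241 FPKM across wild type libraries and 189, 221 and 227 across knockout libraries.

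None of the 5 other tight junction genes passed the threshold. F11r stood at 44.5, 49.0 and 42.9 FPKM across wild type libraries and 46.6, 46.0 and 45.1 across knockout libraries, a narrow spread, with a log2 fold change of 0.02 ± 0.09 (95% interval -0.19 to 0.22; limma adjusted p = 0.960). Ocln, which encodes occludin, stood at 5.74, 6.91 and 9.53 FPKM across wild type libraries and 7.43, 9.93 and 7.79 across knockout libraries, where all 3 knockout values lay above 2 of the wild type values, with a log2 fold change of 0.18 ± 0.19 (limma adjusted p = 0.765). Tjp1, the main scaffold beneath the strands, averaged 15.8 ± 2.41 FPKM for wild type against 16.1 ± 1.49 for knockout (SD, n = 3 each), at a log2 fold change of 0.03 ± 0.13. Its sign depended on 1 library, since it was -0.08 with wild type library 1 left out and -0.03 with knockout library 2 left out.

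Tjp3, a related scaffold, averaged 3.11 ± 0.948 FPKM for wild type against 4.46 ± 2.88 for knockout (SD, n = 3 each), with 7.78 FPKM in knockout library 3 against 2.21 to 4.10 in the other 5. For Tjp3 the log2 fold change was 0.31, or -0.09 without that library. Exons of Tjp3 overlap Apba3 on the opposite strand, and the sources used here do not say whether strand was used.

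Cadherin RNA was dominated by Cdh16, a cadherin specific to the kidney's tubules, and Cdh1, the E-cadherin of adherens junctions. Of all cadherin FPKM, Cdh16 held 73.9, 69.5 and 68.2% across wild type libraries and 72.0, 71.3 and 80.3% across knockout libraries, and Cdh1 held 22.3, 25.9 and 25.9% across wild type libraries and 23.3, 22.6 and 16.8% across knockout libraries. Cdh16 stood at 191, 197 and 202 FPKM across wild type libraries and 178, 179.8 and 268 across knockout libraries. Knockout libraries 1 and 2 lay below all wild type libraries and knockout library 3 above them, so the log2 fold change of 0.06 ± 0.17 (limma adjusted p = 0.917) was -0.13 without that library. Cdh1 (ENSMUSG00000000303.12; chromosome 8, 106603351 to 106670246) stood at 57.8, 73.5 and 76.6 FPKM across wild type libraries and 57.8, 57.0 and 56.0 across knockout libraries. The 3 knockout values lay close together and below the wild type values, but the lowest wild type value and the highest knockout value were both 57.8 FPKM after rounding. The log2 fold change of Cdh1 was -0.27 ± 0.12 (95% interval -0.56 to 0.02; limma adjusted p = 0.595) and -0.26 without knockout library 3.

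Of the 7 cadherins tested 3 were higher and 4 lower, with a median of -0.09. Without knockout library 3 there were 3 higher and 3 lower, with a median of -0.03. The 2 cadherins of the proximal tubule were low. Cdh2, the N-cadherin, stood at 1.56, 1.37 and 1.68 FPKM across wild type libraries and 1.65, 2.29 and 1.39 across knockout libraries, with a log2 fold change of 0.12 ± 0.15 (limma adjusted p = 0.801), or 0.22 without knockout library 3. Cdh6, also called K-cadherin, stood at 1.59, 3.10 and 2.76 FPKM across wild type libraries and 1.49, 2.33 and 2.61 across knockout libraries, with a log2 fold change of -0.14 ± 0.22 (limma adjusted p = 0.844), or -0.25 without it. In both, the 2 groups overlapped. The ratio of Cdh1 to Cdh2 FPKM was 37.0, 53.8 and 45.5 across wild type libraries and 35.04, 24.9 and 40.4 across knockout libraries, lowest in knockout library 2. Cdh3, the P-cadherin of basal epithelia, averaged 5.20 ± 1.30 FPKM for wild type against 4.19 ± 2.10 for knockout, and was at 1.77 FPKM in knockout library 3 against 3.81 to 6.39 in the other 5. For Cdh3 the log2 fold change was -0.34, or 0.07 without that library. Cdh11, a mesenchymal cadherin, averaged 3.18 ± 1.78 FPKM for wild type against 3.35 ± 1.02 for knockout, and wild type library 3, at 5.23 FPKM, was the highest of the 6. The sum of 10 markers of fibroblasts, pericytes and smooth muscle was also highest there. It was 229.9, 316 and 481 FPKM across wild type libraries and 217, 240.4 and 208 across knockout libraries. Tagln and Acta2, at 215 and 138 FPKM in wild type library 3, were its largest parts. Dcn, Lum, Myh11 and Cnn1 were instead highest in knockout library 3. The part of these markers in Cdh11 was not tested. Cdh13, a cadherin held by a lipid anchor, and Cdh24 were under 1 FPKM in every library.

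The desmosomal genes differed little. All 7 had log2 fold changes below 0 from -0.21 to -0.01, with a median of -0.08, against 52.1% of all genes below 0, and 0 of them passed. Genes that share cells and libraries are not independent, and without knockout library 3 only 5 of the 7 were below 0, with a median of -0.03. Pkp4, an armadillo protein of cell contacts, stood at 43.8, 44.4 and 49.7 FPKM across wild type libraries and 45.8, 44.5 and 46.5 across knockout libraries, with a log2 fold change of -0.01 ± 0.09 (95% interval -0.22 to 0.20; limma adjusted p = 0.979). Jup, the plakoglobin shared by desmosomes and adherens junctions, stood at 29.5, 28.5 and 27.5 FPKM across wild type libraries and 29.1, 26.6 and 23.9 across knockout libraries, with a log2 fold change of -0.10 ± 0.10 (limma adjusted p = 0.739) and -0.03 without knockout library 3. In both, the groups overlapped and the whole range over the 6 libraries was small.

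Dsp, the desmoplakin that ties desmosomes to intermediate filaments, varied more within each genotype than between them. It stood at 6.14, 10.2 and 13.1 FPKM across wild type libraries and 7.06, 8.42 and 13.6 across knockout libraries. Wild type library 1 was the lowest of the 6 and knockout library 3 the highest, and the group means, 9.81 ± 3.50 and 9.69 ± 3.45 FPKM (SD, n = 3 each), were nearly equal (limma adjusted p = 0.994). For Dsp the log2 fold change was -0.01, or -0.26 without knockout library 3. The desmosomal cadherins were lower than the plaque genes. Dsg2 stood at 1.94, 2.79 and 3.63 FPKM across wild type libraries and 2.22, 2.52 and 1.93 across knockout libraries, with a log2 fold change of -0.21 ± 0.18 (limma adjusted p = 0.711), and its partner Dsc2 averaged 1.04 ± 0.227 FPKM for wild type against 0.889 ± 0.0688 for knockout (SD, n = 3 each). Dsg2 and Dsc2 together came to 2.74, 3.88 and 4.88 FPKM across wild type libraries and 3.07, 3.36 and 2.90 across knockout libraries. The plaque proteins Pkp2 and Pkp3 averaged 10.9 ± 0.679 FPKM for wild type against 10.4 ± 2.34 for knockout, and 6.29 ± 0.706 FPKM for wild type against 6.17 ± 0.928 for knockout. Epcam, an adhesion molecule of the distal nephron and collecting duct that also stabilises claudins, stood at 37.1, 49.1 and 63.4 FPKM across wild type libraries and 40.5, 46.0 and 51.4 across knockout libraries. Both its extremes were wild type libraries, and the log2 fold change was -0.09 ± 0.20 (95% interval -0.57 to 0.39; limma adjusted p = 0.893), or -0.17 without knockout library 3.

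Itgb1, the beta chain shared by most integrins of the tubule, was the most abundant integrin and the member with the smallest p (ENSMUSG00000025809.15; chromosome 8, 128685654 to 128733200). It stood at 159, 181 and 189 FPKM across wild type libraries and 148, 139 and 120.0 across knockout libraries. Every knockout value was below every wild type value, and knockout library 3 was the lowest. The means were 176 ± 15.4 FPKM for wild type against 136 ± 14.4 for knockout (SD, n = 3 each), and the log2 fold change was -0.37 ± 0.12 (SE; 95% interval -0.66 to -0.09), with an unadjusted p of 0.0171 and a limma adjusted p of 0.592, which fails the correction. Without knockout library 3 the log2 fold change was -0.29. The unadjusted p was 0.0578 without wild type library 2 and 0.0587 without wild type library 3. Over the 17 alternatives the log2 fold change lay between -0.45 and -0.29 and the limma adjusted p between 0.112 and 0.845.

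Of the 8 beta chains 3 were higher and 5 lower. Their median was -0.06, or 0.06 when wild type library 3 was left out. Itgb5, Itgb6 and Itgb8, which pair with Itgav, did not show that order. Itgb8 and Itgb6 are known for activating latent TGF-beta on epithelial cells. Itgb8 stood at 22.8, 26.1 and 22.2 FPKM across wild type libraries and 24.0, 25.8 and 26.9 across knockout libraries, with a log2 fold change of 0.11 ± 0.10 (limma adjusted p = 0.728). Itgb6 stood at 32.0, 16.6 and 23.4 FPKM across wild type libraries and 20.97, 36.5 and 21.4 across knockout libraries, with knockout library 2 above the wild type range and the other 2 knockout libraries within it, and a log2 fold change of 0.13 ± 0.29 (limma adjusted p = 0.893), or 0.25 without knockout library 3. Itgb5, a receptor chain for vitronectin, averaged 26.9 ± 2.03 FPKM for wild type against 27.2 ± 4.04 for knockout (SD, n = 3 each; limma adjusted p = 0.989). Itgav stood at 10.4, 11.5 and 14.5 FPKM across wild type libraries and 10.9, 11.4 and 7.96 across knockout libraries, with a log2 fold change of -0.24 ± 0.17 (limma adjusted p = 0.669) and -0.10 without knockout library 3. The summed FPKM of Itgb3, Itgb5, Itgb6 and Itgb8 exceeded that of Itgav in every library, the ratio being 8.19, 6.03 and 5.06 across wild type libraries and 6.54, 7.71 and 10.2 across knockout libraries.

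The beta chains of blood cells were low. Itgb2, the chain of leukocyte integrins, stood at 3.96, 4.16 and 7.93 FPKM across wild type libraries and 4.61, 4.05 and 4.21 across knockout libraries. Wild type library 3 was well above the other 5, which lay between 3.96 and 4.61 FPKM, and the log2 fold change was -0.21 ± 0.23 (limma adjusted p = 0.771). The summed level of 12 monocyte and macrophage markers was highest in the same library. It was 149, 161 and 261 FPKM across wild type libraries and 155, 137 and 170.2 across knockout libraries. Lyz2, at 115 FPKM in wild type library 3, was the largest part of that sum. Adgre1, Csf1r, Mrc1 and C1qa were instead highest in knockout library 3, and Cd14 in knockout library 1. The 9 neutrophil markers summed to 66.2, 80.9 and 101.5 FPKM across wild type libraries and 47.6, 69.8 and 21.3 across knockout libraries. The part of these cells in Itgb2 was not tested. Itgam, an alpha partner of Itgb2 that the symbol rule leaves out, stood at 2.78, 4.05 and 5.97 FPKM across wild type libraries and 2.27, 1.90 and 1.72 across knockout libraries and did not pass (limma adjusted p = 0.592). Itgb3 and Itgb7, chains of platelets and lymphocytes among other cells, averaged 1.24 ± 0.0864 FPKM for wild type against 1.10 ± 0.205 for knockout, and 0.707 ± 0.298 FPKM for wild type against 0.678 ± 0.238 for knockout. Of 17 T, NK and B cell markers 5 were in the table, and they summed to 2.45, 1.17 and 1.27 FPKM across wild type libraries and 9.99, 9.60 and 11.6 across knockout libraries. That sum was carried by the plasma cell gene Jchain, one of the 15 genes over the whole table that passed (limma adjusted p = 0.0110), and its part in Itgb7 was not tested. Itgb4, the partner of Itga6 in hemidesmosomes, averaged 2.49 ± 0.843 FPKM for wild type against 2.20 ± 0.380 for knockout (SD, n = 3 each).

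Of the 11 alpha chains 5 were higher and 6 lower, with a median of -0.02, or -0.06 without knockout library 3. The largest differences were those of Itga5 and Itga6. Itga5, which with Itgb1 forms the main fibronectin receptor, stood at 11.2, 15.1 and 19.7 FPKM across wild type libraries and 9.36, 11.9 and 4.30 across knockout libraries. Knockout library 2, at 11.9 FPKM, was above wild type library 1, at 11.2, so the groups overlapped. The log2 fold change was -0.84 ± 0.35 (95% interval -1.68 to 0.00; limma adjusted p = 0.592), with an unadjusted p of 0.0505, and without knockout library 3 it was -0.46. Itga6, a laminin receptor chain, stood at 29.1, 28.4 and 45.5 FPKM across wild type libraries and 27.8, 24.8 and 12.7 across knockout libraries. All knockout values were below the wild type values, although wild type library 3 and knockout library 3 made up most of the distance. The log2 fold change was -0.67 ± 0.32 (95% interval -1.43 to 0.08; limma adjusted p = 0.596), and -0.34 without knockout library 3. About 6.15% of the 31-base words of Itga6 transcripts also occur in transcripts of other genes, as do 7.86% of those of Itgb5. These were the 2 members over 5%.

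Itga3, the laminin receptor chain of podocytes and tubules, stood at 18.9, 24.2 and 31.7 FPKM across wild type libraries and 21.4, 24.9 and 21.4 across knockout libraries, with both extremes in wild type and a log2 fold change of -0.11 ± 0.19 (limma adjusted p = 0.8503). The 7 podocyte markers summed to 97.6, 112 and 96.2 FPKM across wild type libraries and 84.8, 85.8 and 87.2 across knockout libraries, lower in every knockout library, and their part in Itga3 or Itgb1 was not tested. Itga1, a collagen receptor chain, stood at 14.3, 16.2 and 16.6 FPKM across wild type libraries and 16.0, 17.02 and 18.9 across knockout libraries, with a log2 fold change of 0.13 ± 0.10 (95% interval -0.11 to 0.38; limma adjusted p = 0.695) and 0.07 without knockout library 3. Wild type library 1 was the lowest and knockout library 3 the highest, and the range was narrow. Itga8, a chain of mesangial and interstitial cells, stood at 1.91, 1.55 and 1.88 FPKM across wild type libraries and 1.62, 2.56 and 4.65 across knockout libraries, so that knockout library 3 was the highest by a wide margin. Its log2 fold change of 0.43 ± 0.27 (limma adjusted p = 0.640) was 0.14 without that library.

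The remaining alpha chains gave no separation. Itga9, a tenascin receptor chain, averaged 6.15 ± 1.33 FPKM for wild type against 6.20 ± 0.983 for knockout, and Itga7, a laminin receptor chain best known from muscle, 4.13 ± 0.784 FPKM for wild type against 4.09 ± 0.868 for knockout (SD, n = 3 each), with limma adjusted p of 0.978 and 0.982. Itga7 overlaps Mettl7b on the opposite strand. Itga2, a collagen receptor chain, stood at 0.3501, 1.07 and 1.21 FPKM across wild type libraries and 0.343, 0.368 and 2.00 across knockout libraries, with low and high values in both genotypes. The fitted log2 fold change was -0.05, or -0.44 without knockout library 3. Itga4 of leukocytes and Itga2b of platelets were at most 1.03 and 0.892 FPKM, with limma adjusted p of 0.913 and 0.862. Of 7 platelet markers listed, Pf4 and Ppbp were in the table, and they summed to 6.71, 12.8 and 21.4 FPKM across wild type libraries and 6.10, 7.19 and 7.86 across knockout libraries. Of the genes for integrin-binding proteins, Itgb1bp1, whose product binds the tail of Itgb1, stood at 4.88, 6.37 and 6.03 FPKM across wild type libraries and 4.51, 5.57 and 4.02 across knockout libraries (log2 fold change -0.25 ± 0.14, or -0.16 without knockout library 3; limma adjusted p = 0.624), with exons that overlap Asap2 and Cpsf3 on the opposite strand. Itgb3bp, which also encodes a centromere protein, averaged 1.76 ± 0.198 FPKM for wild type against 2.03 ± 0.187 for knockout (SD, n = 3 each; limma adjusted p = 0.703), and it overlaps Pgm1.

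Itgb1 exceeded the sum of the 10 alpha chains analysed here that can pair with it in every library. That sum was 96.5, 109 and 143 FPKM across wild type libraries and 98.6, 106 and 81.2 across knockout libraries, and the ratio of Itgb1 to it was 1.65, 1.66 and 1.32 across wild type libraries and 1.504, 1.32 and 1.48 across knockout libraries. The ratio overlapped between the genotypes, with means of 1.54 ± 0.193 and 1.43 ± 0.101 (SD, n = 3 each). Within the sum, Itga6 held 30.2, 26.1 and 31.9% across wild type libraries and 28.2, 23.5 and 15.7% across knockout libraries. Itga5 held 11.6, 13.9 and 13.8% across wild type libraries and 9.49, 11.3 and 5.30% across knockout libraries, so that all 3 knockout shares lay below all wild type shares. Itga1 held 14.8, 14.9 and 11.6% across wild type libraries and 16.2, 16.1 and 23.3% across knockout libraries, in the opposite order. These are shares of 1 total, so they move against each other, and they were not tested.

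**Figure D4:**
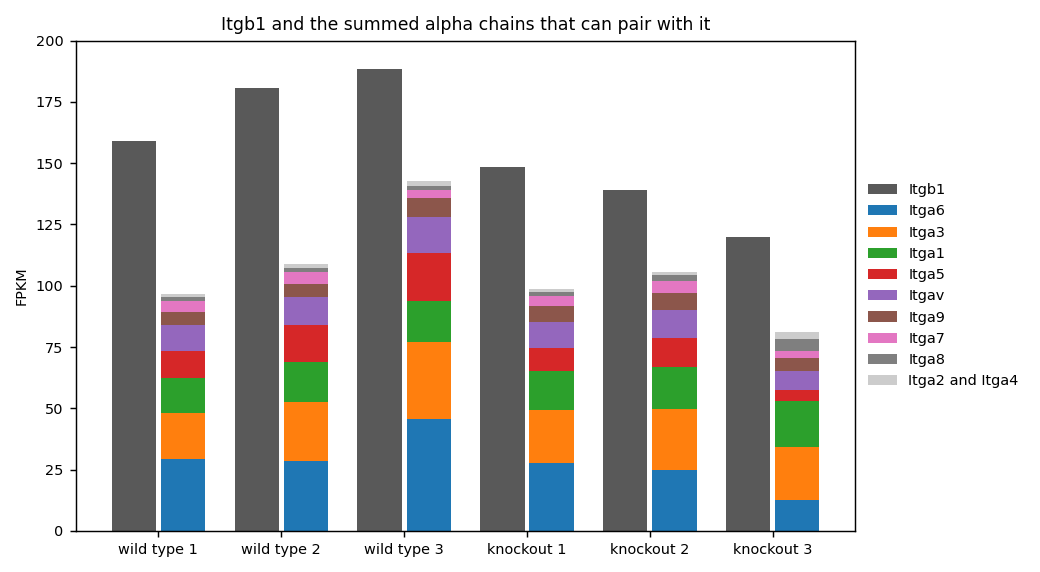
FPKM of Itgb1 (grey bars) beside the stacked FPKM of the 10 alpha chains analysed here that can pair with it, in each library. Itgb1 is above the stack in all 6 libraries, and the stack is highest in wild type library 3 (143 FPKM) and lowest in knockout library 3 (81.2 FPKM).

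The libraries of a genotype differed among themselves in many members. The highest wild type value was over 1.5 times the lowest in 28 of the 56 members tested, and the highest knockout value over 1.5 times the lowest in 28. Wild type library 3 was the highest of the 6 libraries in 26 members (46.4%), against 26.7% of all genes tested, and wild type library 1 was the lowest in 15 (26.8%), against 15.2%. Knockout library 3 was the highest in 14 (25%) and the lowest in 21 (37.5%), against 29.8 and 30.3% of all genes. It lay more than 1.5-fold outside the range of the other 5 libraries in 12 members, 5 above and 7 below. Cldn11, among the 5 above, is in the table only through that library, so its place there was fixed. None of these 1.5-fold counts was made over all genes, so they are not read as traits of the members. Leaving out wild type library 1 raised the number of members whose groups did not overlap from 4 to 17 (30.4%), while the share of all genes rose from 16.6 to 27.5%, a comparison with fewer wild type values to clear.

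The partners of these genes were read from lists chosen for the pathway, and 0 genes of the 7 lists passed the adjusted threshold. Of 11 genes of the adherens junction, among them the catenins and nectins, 4 were higher and 7 lower, their median log2 fold change being -0.13, and 0.01 when knockout library 3 was left out. Ctnnb1, the beta-catenin bound by cadherins, averaged 92.6 ± 7.46 FPKM for wild type against 82.6 ± 6.87 for knockout (limma adjusted p = 0.653). Nectin3, an adhesion molecule that joins the catenins through afadin, averaged 10.02 ± 0.558 FPKM for wild type against 11.4 ± 0.0316 for knockout (limma adjusted p = 0.598), without overlap between the groups. Of 25 scaffold and polarity genes of the tight junction, 11 were higher and 14 lower, with a median of -0.02. Prkcz, an atypical protein kinase C of the polarity complex, averaged 7.11 ± 0.305 FPKM for wild type against 9.40 ± 1.63 for knockout (limma adjusted p = 0.592). For Prkcz the log2 fold change was 0.35, or 0.22 without knockout library 3. Ybx3, a factor that binds tight junction scaffolds, averaged 38.7 ± 11.9 FPKM for wild type against 26.8 ± 6.56 for knockout (limma adjusted p = 0.601; SD, n = 3 for every mean here), and its log2 fold change was -0.50, or -0.29 without that library.

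Of 31 integrin adaptor and signalling genes, 10 were higher and 21 lower, with a median of -0.13 and -0.07 without knockout library 3. Parva, which binds the integrin-linked kinase Ilk, stood at 21.7, 24.0 and 23.9 FPKM across wild type libraries and 19.3, 19.1 and 20.0 across knockout libraries, with a log2 fold change of -0.24 ± 0.08 (limma adjusted p = 0.592). Actn4, an actin crosslinker at adhesion sites, averaged 103 ± 6.01 FPKM for wild type against 82.1 ± 12.3 for knockout (SD, n = 3 each; limma adjusted p = 0.592), and like Parva its 3 knockout values all lay below the wild type values. For Actn4 the log2 fold change was -0.34, or -0.21 without knockout library 3. Tns2, a tensin at the same sites, went the other way, at 17.2, 20.2 and 19.5 FPKM across wild type libraries and 24.0, 25.4 and 23.4 across knockout libraries (log2 fold change 0.34 ± 0.10; limma adjusted p = 0.592). Of 12 hemidesmosome and tetraspanin genes, 4 were higher and 8 lower, with a median of -0.09. Without knockout library 3 there were 6 higher and 6 lower, with a median of -0.03. Cd151, the tetraspanin that binds laminin receptors, averaged 71.7 ± 2.23 FPKM for wild type against 53.6 ± 15.5 for knockout (SD, n = 3 each; limma adjusted p = 0.596), with 36.2 FPKM in knockout library 3. For Cd151 the log2 fold change was -0.46, or -0.20 without that library. Tspan8 was lower too, at a log2 fold change of -0.68, or -0.43 without that library (limma adjusted p = 0.592 over all libraries). The groups did not overlap in either gene. Cd81 was higher without overlap, at 69.9 ± 1.63 FPKM for wild type against 74.4 ± 2.53 for knockout (limma adjusted p = 0.723).

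Of 31 integrin ligand genes, 9 were higher and 22 lower, with a median of -0.14 and -0.10 without knockout library 3. Tnc, the tenascin bound by Itga9, averaged 20.9 ± 11.5 FPKM for wild type against 11.9 ± 1.66 for knockout (SD, n = 3 each; limma adjusted p = 0.602), the groups not overlapping. Nid1, which links laminin to collagen in basement membrane, averaged 30.7 ± 5.47 FPKM for wild type against 23.4 ± 4.70 for knockout (limma adjusted p = 0.598). For Nid1 the log2 fold change was -0.38, or -0.22 without knockout library 3. Fbln5 was instead higher without overlap, at 11.6 ± 1.12 FPKM for wild type against 13.2 ± 0.364 for knockout (limma adjusted p = 0.623). Of 13 atypical cadherins and protocadherins, 7 were higher and 6 lower, with a median of 0.13, and -0.02 without knockout library 3. At an unadjusted p under 0.05 there were 4 of them higher, against the 4.34% of all genes given above. Cdhr2, a protocadherin of the brush border, stood at 7.68, 5.80 and 6.998 FPKM across wild type libraries and 10.8, 9.01 and 10.2 across knockout libraries (log2 fold change 0.50 ± 0.12; limma adjusted p = 0.592). Pcdh17 stood at 3.84, 3.79 and 3.52 FPKM across wild type libraries and 4.64, 5.96 and 6.12 across knockout libraries (log2 fold change 0.47 ± 0.12; limma adjusted p = 0.592). In both, every knockout value was above every wild type value, as were the sums of proximal tubule markers, whose part in Cdhr2 was not tested. Pcdh1 and Fat1 went the other way, with log2 fold changes of -0.19 and -0.18 and groups that overlapped. Of 3 leukocyte alpha integrins outside the symbol rule, Itgal, Itgam and Itgax, 1 was higher and 2 lower.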

How the data were processed

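Kidney RNA was sequenced in 3 wild type and 3 LIGHT knockout libraries after a stranded library preparation, per the labels' protocols. FastQC, HISAT2 and StringTie, with the mm10 build, are named in the submitters' processing notes, without versions or settings. The authors deposited FPKM values per gene, already normalized for transcript length and library depth. Read counts were not used here, so the depth and the counting error behind each FPKM value are unknown, and no count model was run. The per-sample tables were checked to hold the same values as the table of all samples.

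Values were analysed as log2(FPKM + 1), so fold changes are on that scale and understate the change of low genes. Genes averaging 0.5 FPKM or more were kept (12836 of 13026). Genotypes were compared with limma 3.58.1 in R 4.3.3 (empirical Bayes with a mean-variance trend) and Benjamini-Hochberg adjustment over all genes kept, at 0.05. The fit was tested on simulated data. Exact permutation of 3 against 3 libraries cannot go below p = 0.1 and was not used. Nothing in the labels says how the 3 libraries of a group relate, so p-values measure only the spread between these samples, which may be technical. Same-numbered libraries of the groups did not all deviate together, so no pairing was used, although a pairing is not excluded. SDs and SEs are over n = 3 libraries per genotype. Gene positions are from GENCODE M21 (57 of 57 members matched, and 13005 of 13026 genes in all).

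The members, the pathway lists and the marker lists (proximal tubule, thick ascending limb and distal convoluted tubule, collecting duct, podocyte, endothelium, fibroblast, pericyte and smooth muscle, neutrophil, monocyte and macrophage, T, NK and B cell, platelet, injured tubule) were chosen with earlier results of these data known. The urothelium and adipocyte lists were added after the values were seen. Members were named by a rule: any past the threshold, up to 10 in each direction by smallest p among means of at least 1 FPKM, a list of main junction and integrin genes, and the most abundant of each role. Other members are described too, some chosen after their values were seen. The counts cover all 57 members, and 1 of them is not reported here by its own values. From each pathway list at most 2 genes per direction were named. Alternatives covered the pseudocount, the filter, scaling, the variance model, library weights, a replicate block and leaving out each library.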

Additional observations from a re-analysis of the deposited data

How the results depend on the processing

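Over 17 alternatives 0 members passed the adjusted threshold in either direction. Of 558 values of single named members under them, 25 changed sign, and 20 of the 33 named members kept their sign throughout. The replicate block left 0 members called, and Itgb1 at a limma adjusted p of 0.656, and it took the calls over all genes from 15 to 0. Same-numbered libraries correlated at 0.146, -0.133 and -0.0193 in their deviations from the group means, and not every library correlated best with its own number. Deviations from a mean of 3 libraries depend on each other, so this check cannot exclude a pairing. Library weights gave 52 calls over all genes, 6 members higher and 3 lower at an unadjusted p under 0.05, and a claudin median log2 fold change of 0.13. They gave log2 fold changes of -0.10 for Cdh16, 0.14 for Cldn1, 0.0149 for Cldn4, -0.0161 for F11r and 0.0399 for Itga3. Median-centred values gave 2 members lower at an unadjusted p under 0.05. Rescaling each library to the same FPKM total left 2 members without overlap, against 4, and gave 0.0313 for Dsp and 0.0308 for Pkp4. Leaving out each library in turn gave 0 to 2 members higher and 0 to 4 lower at an unadjusted p under 0.05, and 6 to 17 without overlap. The median log2 fold change then ran from -0.0716 to 0.13 for claudins and from -0.13 to 0.0640 for beta integrins. The single-gene values ran from -0.0796 to 0.13 for Tjp1, -0.28 to 0.21 for Dsp, -0.12 to 0.35 for Itgb6, and -0.28 to 0.0993 for Epcam. They ran from -0.0240 to 0.0702 for F11r, -0.29 to 0.0709 for Itga3, -0.36 to 0.0633 for Itgb2, and -0.0419 to 0.0473 for Pkp4. For Cdh6 they ran from -0.34 to 0.0193, for Cdh2 from -0.0107 to 0.22, for Cdh16 from -0.13 to 0.16, and for Cldn4 from -0.58 to 0.0578. The cause of these shifts was not tested. No calls over all genes were left without wild type library 1, wild type library 3 or knockout library 2. With depth unknown, values near 0.5 FPKM are the least certain.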
